A study of Mus musculus with 14 samples.

Results

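The mast cell proteases Cma1, Mcpt4 and Cpa3 were lower in mouse uteri labelled HIF2A cKO than in WT uteri at diestrus, and all 3 were higher at estrus than at diestrus in both genotypes. Kitl, the ligand of the KIT receptor on mast cells, was also lower in the uteri labelled HIF2A cKO at diestrus, and it fell at estrus in WT uteri. Hdc, the histamine-making enzyme, varied widely at diestrus and was at 1.74 to 2.75 FPKM at estrus. The set described here has 9 genes, chosen by symbol as mast cell genes together with Kitl, out of 31274 genes in the table, and all 9 symbols were found. RNA came from uteri of FVB/N mice, intact, untreated and 2 months old, in 4 groups: HIF2A cKO at diestrus (4 libraries), WT at diestrus (4 libraries), HIF2A cKO at estrus (3 libraries) and WT at estrus (3 libraries). The label HIF2A cKO stands for a conditional knockout of HIF2A, the oxygen-regulated transcription factor subunit encoded by Epas1. The labels name neither a Cre driver nor the exons deleted, and they do not say whether each library came from a separate animal, so the p-values given here reflect differences among these libraries, whose spread may be technical. The libraries are named below by their replicate numbers, 1 to 4 at diestrus and 1, 2 and 4 at estrus.

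Mast cells are tissue-resident immune cells that store proteases, histamine and heparin in granules. They arise from blood-borne progenitors, and their survival and maturation in tissue depend on KIT, a receptor tyrosine kinase, and on KIT ligand, which stromal, endothelial and epithelial cells make as a membrane-bound or shed protein. IgE bound to the receptor FceRI triggers the release of the granules. In the uterus, mast cells lie in the connective tissue and between the muscle layers.

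The 9 genes fall into 4 roles. Cma1 (chr14:55941451-55944675, minus strand) and Mcpt4 (chr14:56059629-56062313, minus strand) encode chymases in the same protease cluster, Tpsb2 (chr17:25366305-25369098, plus strand) encodes a tryptase, and Cpa3 (chr3:20215620-20242181, minus strand) encodes carboxypeptidase A3; these 4 are granule proteases. Fcer1a (chr1:173221284-173227214, minus strand) and Ms4a2 (chr19:11615523-11623719, minus strand) encode the alpha and beta subunits of FceRI. Kit (chr5:75574916-75656722, plus strand) and Kitl (chr10:100015630-100100416, plus strand) are the receptor and its ligand, and Hdc (chr2:126593667-126619299, minus strand) encodes histidine decarboxylase, the enzyme that makes histamine. Coordinates are those of the GENCODE annotation of mm10, in which each is protein coding. Of their 50-base stretches, 5.4% in Cma1, 5.5% in Mcpt4 and 2.7% in Ms4a2 also occur in another transcript, so reads there could have been assigned elsewhere, and 0.0% do in the other 6.

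The promoters of 4 of these genes are shown because several of the genes are lower in the same libraries below, and because GATA factors are known regulators of mast cell genes. RefSeq promoters (assembly GRCm38.p6) matched 8 of the 9 genes, all but Tpsb2. The 250 bases upstream of each start were searched on both strands for AGATAA or TGATAA, written as GATA below, and for ACGTG, the core that hypoxia-inducible factors bind. Capitals mark these matches, which read TTATCT or CACGT when they lie on the other strand; the 2 GATA forms cannot match at the same place. The regions are chr14:55944676-55944925, chr14:56062311-56062560, chr3:20242182-20242431 and chr19:11623720-11623969, all read 5′ to 3′ on the minus strand.
Cma1: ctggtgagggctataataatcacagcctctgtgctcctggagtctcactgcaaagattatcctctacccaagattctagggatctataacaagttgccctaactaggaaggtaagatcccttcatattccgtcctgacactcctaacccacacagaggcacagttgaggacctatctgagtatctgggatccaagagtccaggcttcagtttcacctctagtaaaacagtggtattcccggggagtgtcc
Mcpt4: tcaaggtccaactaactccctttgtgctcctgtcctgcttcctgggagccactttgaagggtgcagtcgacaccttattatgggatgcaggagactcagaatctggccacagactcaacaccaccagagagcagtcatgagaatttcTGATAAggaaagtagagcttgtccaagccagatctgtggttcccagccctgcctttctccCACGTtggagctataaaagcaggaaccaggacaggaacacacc
Cpa3: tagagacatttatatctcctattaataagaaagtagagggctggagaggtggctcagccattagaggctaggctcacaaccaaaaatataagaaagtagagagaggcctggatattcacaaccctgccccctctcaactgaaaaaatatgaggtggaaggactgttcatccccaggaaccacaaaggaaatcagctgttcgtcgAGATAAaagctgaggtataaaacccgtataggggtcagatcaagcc
Ms4a2: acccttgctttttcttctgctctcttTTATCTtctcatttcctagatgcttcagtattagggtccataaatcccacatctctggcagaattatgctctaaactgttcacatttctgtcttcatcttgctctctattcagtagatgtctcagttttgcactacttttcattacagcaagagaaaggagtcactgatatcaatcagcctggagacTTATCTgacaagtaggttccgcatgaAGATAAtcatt

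A GATA match was present in 4 of the 8 promoters, those of Mcpt4, Cpa3, Fcer1a and Ms4a2, against 17.0% of all 27025 promoters of this length. Its first base lay at -103 in Mcpt4, at -46 in Cpa3 and at -92 in Fcer1a, counted from the start site, while Ms4a2 held 3 matches at -224, -37 and -11. Cma1, Kit, Kitl and Hdc held none in this window. ACGTG was present in 16.6% of all promoters and in 1 of the 8, that of Mcpt4. A match describes the letters and is no evidence of binding.

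Before the results, some facts of the libraries bear on them. Values are FPKM (fragments per kilobase of transcript, scaled to the mapped fragments of the library), which sum to between 437879 and 497688 per library, and Pearson's r between libraries of a group was 0.956 to 0.994. Epas1, the gene targeted, averaged 39.5 ± 4.44 FPKM in those at diestrus and 34.8 ± 5.82 FPKM in WT at diestrus (SD, n = 4 each), and 41.2 ± 4.01 FPKM in those at estrus and 32.9 ± 1.56 FPKM in WT at estrus (SD, n = 3 each). It was thus no lower under the knockout label. Since a value for the whole gene need not show the loss of some exons, this neither bears out the label nor goes against it, and the genotype is given throughout as labelled. Both diestrus libraries numbered 3 stood apart: the sum of 5 uterine NK cell markers was 53.0 FPKM in the one labelled HIF2A cKO and 103 FPKM in the WT one, and between 5.49 and 9.81 FPKM in the other 6 diestrus libraries. Signal of the 45S ribosomal precursor was highest in HIF2A cKO diestrus library 4 (1890 FPKM) and HIF2A cKO estrus library 1 (819 FPKM), and between 208 and 578 FPKM in the others.

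The granule proteases Cpa3, Cma1 and Mcpt4 were called lower in uteri labelled HIF2A cKO at diestrus, and Tpsb2 was not. Cpa3 was at 8.61, 5.03, 4.98 and 5.70 FPKM in the libraries labelled HIF2A cKO, against 14.3, 11.5, 9.06 and 11.9 FPKM in WT libraries. Cma1 was at 10.9, 7.63, 9.37 and 8.55 FPKM in the libraries labelled HIF2A cKO, against 18.0, 14.3, 11.5 and 16.1 FPKM in WT. Every WT library lay above every library labelled HIF2A cKO for both genes, and library 1 was the highest of its group in each genotype. Cpa3 fell by 0.85 on the log2(FPKM + 1) scale (SE 0.174; adjusted p = 0.00707) and Cma1 fell by 0.65 (SE 0.148; adjusted p = 0.0104), by limma with Benjamini-Hochberg adjustment over the 14278 genes tested. The ratio of mean FPKM, labelled HIF2A cKO over WT, was 0.521 for Cpa3 and 0.609 for Cma1.

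Mcpt4 was at 13.3, 7.54, 8.34 and 7.04 FPKM in the diestrus libraries labelled HIF2A cKO, against 18.6, 15.0, 11.8 and 17.2 FPKM in WT. The groups overlapped because HIF2A cKO library 1 lay above WT library 3, the lowest of its group; Mcpt4 fell by 0.75 (SE 0.186; limma adjusted p = 0.0145), and without HIF2A cKO diestrus library 2 the adjusted p was 0.0529. Tpsb2 was at 14.7, 8.99, 8.72 and 6.47 FPKM in the libraries labelled HIF2A cKO, against 17.1, 11.9, 8.35 and 14.8 FPKM in WT. These groups overlapped widely, and the difference of -0.40 (SE 0.229) did not pass the test (limma adjusted p = 0.215).

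Kitl, the KIT ligand, was at 11.1, 10.4, 11.8 and 14.9 FPKM in the diestrus libraries labelled HIF2A cKO, against 21.2, 14.5, 18.7 and 19.8 FPKM in WT. HIF2A cKO library 4 and WT library 2 overlapped, and the other 3 of each group were apart; Kitl fell by 0.58 (SE 0.132; limma adjusted p = 0.0103). Kit, the receptor, was at 6.50, 6.48, 9.44 and 5.22 FPKM in the libraries labelled HIF2A cKO, against 4.01, 7.01, 11.9 and 2.98 FPKM in WT. The groups overlapped fully, with library 3 the highest in each, and the difference was 0.20 (SE 0.286; limma adjusted p = 0.628). Interstitial cells of Cajal and some lymphoid cells also carry KIT. For interstitial cells of Cajal, 3 markers were summed, Kit among them. At diestrus the sum was 19.9, 20.7, 38.0 and 22.6 FPKM in the libraries labelled HIF2A cKO, against 44.6, 31.2, 42.8 and 45.4 FPKM in WT. The groups overlapped only through HIF2A cKO library 3. Of the 3 markers 1, Ano1, was called lower, where 10% of all genes tested were. The part of these markers in the Kit values was not tested.

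At diestrus 4 of the 7 members tested were thus called, Cma1, Mcpt4, Cpa3 and Kitl, all lower in the libraries labelled HIF2A cKO, where 10% of all genes tested were called lower. Fcer1a and Ms4a2 lay under the minimum of 1 FPKM in 3 libraries and were not in this test. The median difference of the 7 was -0.65, against 0.02 over all genes tested. Fitted with the 8 diestrus libraries alone, the test called only Cpa3 of these 4, with adjusted p of 0.0507 for Cma1, 0.0633 for Mcpt4 and 0.0544 for Kitl (limma). Over all genes that fit called 430 of 13801, with 1.89% higher and 1.22% lower. In bulk tissue, fewer mast cells and less RNA per mast cell cannot be told apart.

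**Figure D1:**
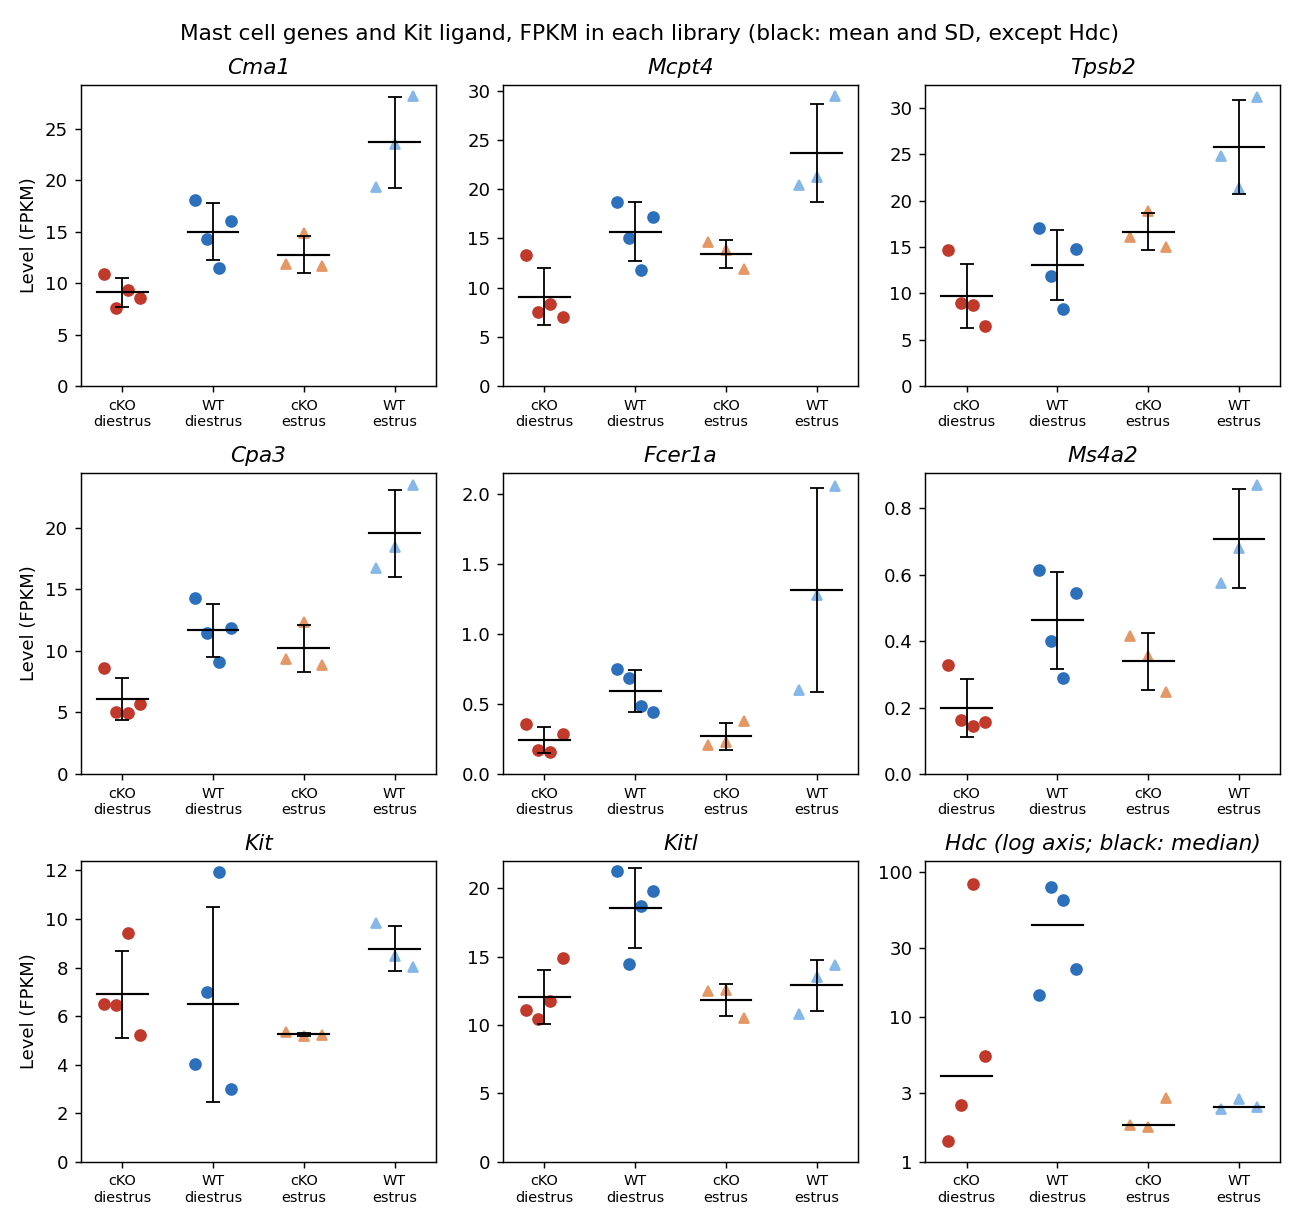
Level of each of the 9 genes in FPKM (vertical axis) in the 14 libraries, by group; points are libraries in order of replicate number, black bars are the mean and SD, and the Hdc panel has a log axis with medians. For Cma1 and Cpa3 all libraries labelled HIF2A cKO lie below all WT libraries of the same stage, whereas Hdc is at 83.3 FPKM in 1 diestrus library labelled HIF2A cKO and at 1.38 to 5.39 FPKM in the other 3.

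The subunits of the IgE receptor were measured at low levels, and gave the same order of genotypes. Fcer1a was at 0.357, 0.168, 0.159 and 0.286 FPKM in the diestrus libraries labelled HIF2A cKO, against 0.749, 0.689, 0.489 and 0.445 FPKM in WT. Ms4a2 was at 0.328, 0.161, 0.144 and 0.157 FPKM in the libraries labelled HIF2A cKO, against 0.615, 0.400, 0.289 and 0.545 FPKM in WT. The groups did not overlap for Fcer1a (exact two-sided permutation test of the means, p = 0.0286, the smallest that 4 against 4 allows), and overlapped by 1 library for Ms4a2 (exact p = 0.0571). In a fit with no minimum, Ms4a2 was called lower at -0.29 (limma adjusted p = 0.0376) and Fcer1a was not, at -0.36 (limma adjusted p = 0.154). A difference on the log2(FPKM + 1) scale understates the change of genes at this level; the ratio of means was 0.409 for Fcer1a and 0.427 for Ms4a2.

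Hdc differed from the other mast cell genes in its spread. It was at 1.38, 2.45, 83.3 and 5.39 FPKM in the diestrus libraries labelled HIF2A cKO, against 14.2, 78.5, 64.3 and 21.5 FPKM in WT. Library 3 of the group labelled HIF2A cKO was higher than every WT library, and the other 3 were lower than every WT library. The difference of -2.16 (SE 0.897) did not pass the test (limma adjusted p = 0.0938). It was called at -3.28 without that library (limma adjusted p = 0.00092). Without both libraries numbered 3 it was called too, with an adjusted p of 0.00198 (limma). With stage and replicate number as a block it was called at -2.16 (limma adjusted p = 0.0324). Fitted on the diestrus libraries alone with replicate number as a block, it was not called (limma adjusted p = 0.0877). Hdc is known from mouse work to be made in uterine epithelium as well as in mast cells; the summed level of 6 uterine epithelial markers was 368 FPKM in that library and 591 to 704 FPKM in the other 3 labelled HIF2A cKO, against 318 to 519 FPKM in WT. The part of these markers, and of the uterine NK cell markers that were high in both libraries numbered 3, in the Hdc level was not tested.

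At estrus most of the mast cell genes again had lower values in the libraries labelled HIF2A cKO, and no member passed the test. Cpa3 was at 9.31, 12.4 and 8.88 FPKM in the libraries labelled HIF2A cKO, against 16.7, 18.4 and 23.5 FPKM in WT. Cma1 was at 11.9, 14.8 and 11.6 FPKM in the libraries labelled HIF2A cKO, against 19.4, 23.5 and 28.2 FPKM in WT. The groups were apart for both, at -0.88 for Cpa3 (SE 0.201; limma adjusted p = 0.205) and -0.83 for Cma1 (SE 0.171; limma adjusted p = 0.133). Mcpt4 was at 14.6, 13.8 and 11.9 FPKM in the libraries labelled HIF2A cKO, against 20.4, 21.3 and 29.4 FPKM in WT. Tpsb2 was at 16.1, 18.8 and 15.0 FPKM in the libraries labelled HIF2A cKO, against 24.8, 21.3 and 31.2 FPKM in WT. Both groups were apart here too, at -0.76 for Mcpt4 (limma adjusted p = 0.344) and -0.59 for Tpsb2 (limma adjusted p = 0.654).

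KIT and the IgE receptor subunits had lower values at estrus too, while those of the ligand overlapped. Kit was at 5.33, 5.19 and 5.23 FPKM in the libraries labelled HIF2A cKO, against 9.82, 8.46 and 8.04 FPKM in WT, a difference of -0.64 (SE 0.331; limma adjusted p = 0.744). Fcer1a was at 0.204, 0.228 and 0.382 FPKM in the libraries labelled HIF2A cKO, against 0.601, 1.28 and 2.06 FPKM in WT. Ms4a2 was at 0.414, 0.356 and 0.247 FPKM in the libraries labelled HIF2A cKO, against 0.575, 0.680 and 0.869 FPKM in WT. All 3 genes had groups that did not overlap. Kitl was at 12.5, 12.6 and 10.5 FPKM in the libraries labelled HIF2A cKO, against 10.8, 13.5 and 14.4 FPKM in WT, and Hdc at 1.80, 1.74 and 2.75 FPKM in those labelled HIF2A cKO, against 2.33, 2.71 and 2.38 FPKM in WT; both overlapped.

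Counted over the set, 7 of the 9 members were lower in every estrus library labelled HIF2A cKO than in any WT one, all but Kitl and Hdc, where 12% of the genes tested were; at diestrus 3 of 9 were (Cma1, Cpa3 and Fcer1a), where 6.96% of the genes tested were. These 3 were below WT without overlap at both stages, as 1.44% of the genes tested were. Fcer1a and Ms4a2 lay under the minimum and are not among the genes tested. Of the 8551 genes under it and above 0 in at least 1 library, 3.1% were lower without overlap at diestrus and 5.36% at estrus. With 3 libraries against 3, an exact permutation test cannot go below p = 0.1. The limma test called 0 of the 7 members tested at estrus, where it called 0.105% of all genes either way; 4 members (Cma1, Mcpt4, Tpsb2 and Cpa3) had an unadjusted limma p under 0.05, all lower, as 3.35% of the genes tested had. It called 1 (Cma1, limma adjusted p = 0.0471) without the diestrus libraries numbered 3, where it called 63 of 14160 genes, and 4 (Cma1, Mcpt4, Cpa3 and Kit) when the 6 estrus libraries were fitted alone, where it called 441 of 13526 genes. Averaged over both stages, a comparison added after the values were seen, 4 of 7 were called lower in the libraries labelled HIF2A cKO, where 4.32% of the genes tested were: Cpa3 at -0.86 (SE 0.133; limma adjusted p = 0.00806), Cma1 at -0.74 (SE 0.113; limma adjusted p = 0.00805), Mcpt4 at -0.76 (SE 0.142; limma adjusted p = 0.0144) and Kitl at -0.35 (SE 0.101; limma adjusted p = 0.047). The Kitl call was lost in 14 of 28 alternative settings, given in the closing section; those of the other 3 were kept in all of them.

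**Figure D2:**
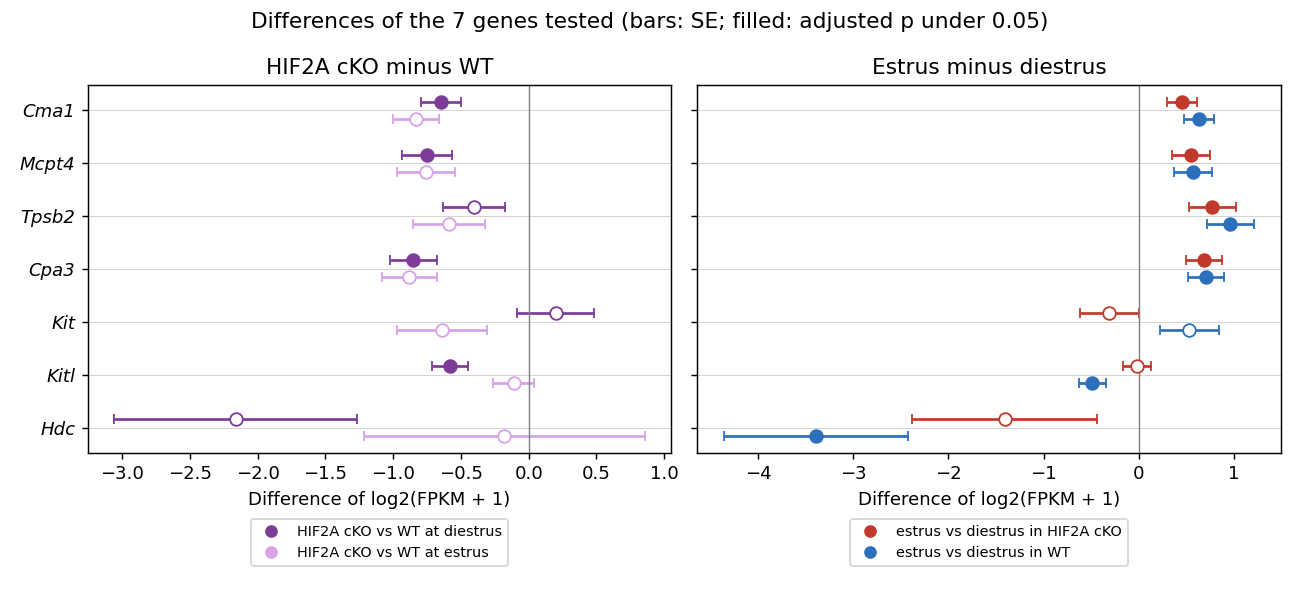
Differences of log2(FPKM + 1) for the 7 genes tested (horizontal axes), labelled HIF2A cKO minus WT on the left and estrus minus diestrus on the right; points are limma estimates, bars their SE, and filled points have an adjusted p under 0.05. The 4 protease genes lie left of 0 at both stages and right of 0 in both genotypes, and Hdc has the widest bars.

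Cycle stage moved the proteases in both genotypes, with higher levels at estrus than at diestrus. In the uteri labelled HIF2A cKO, with the values per library given above, Cpa3 rose at estrus relative to diestrus by 0.68 (SE 0.188; limma adjusted p = 0.00717) and Tpsb2 by 0.77 (SE 0.248; limma adjusted p = 0.0162). Cma1 rose by 0.45 (SE 0.160; limma adjusted p = 0.0273) and Mcpt4 by 0.55 (SE 0.201; limma adjusted p = 0.029). Stage groups did not overlap for 3 of the 9 members, Cma1, Tpsb2 and Cpa3, each higher at estrus, as 26.1% of the genes tested were, and overlapped for Mcpt4 through diestrus library 1. These 4 of 7 were called higher, where 25.5% of all genes tested were. The count was 1, Cpa3, without HIF2A cKO estrus library 2, where 22.4% of all genes tested were called higher. It was likewise 1, Cpa3, without the 2 libraries highest in 45S signal, where 20.6% were. The Cma1 call was also lost without diestrus library 2 or 4, and the Mcpt4 call without diestrus library 2, 3 or 4 or estrus library 1, with adjusted p between 0.0519 and 0.0946 (limma).

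In WT uteri the same 4 proteases rose at estrus relative to diestrus. Stage groups did not overlap for these 4 of 9 members, higher at estrus as 24.2% of the genes tested were, nor for Kitl and Hdc, lower at estrus as 36.9% were. Tpsb2 rose by 0.96 (SE 0.248; limma adjusted p = 0.00533), Cpa3 by 0.70 (SE 0.188; limma adjusted p = 0.00681), Cma1 by 0.63 (SE 0.160; limma adjusted p = 0.00496) and Mcpt4 by 0.57 (SE 0.201; limma adjusted p = 0.0287). For Mcpt4 the adjusted p was 0.0559 without WT diestrus library 2, 0.075 without WT diestrus library 3 and 0.139 without WT estrus library 4 (limma). The Mcpt4 call was also lost with library weights (limma adjusted p = 0.0518) and without the diestrus libraries numbered 3 (limma adjusted p = 0.0773). WT estrus library 4 was the highest of its group for all 4 proteases and for Fcer1a and Ms4a2. Kitl fell by 0.49 (SE 0.142; limma adjusted p = 0.011), to 12.9 ± 1.86 FPKM at estrus (SD, n = 3), against 18.5 ± 2.91 FPKM at diestrus (SD, n = 4). Hdc fell by 3.39 (SE 0.969; limma adjusted p = 0.00961), with every estrus library at or under 2.71 FPKM and every diestrus library at or above 14.2 FPKM. The Kitl adjusted p was 0.0617 without WT estrus library 1. Called higher were thus 4 of 7 members, where 23% of all genes tested were, and lower 2 of 7, where 34.1% were.

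Kit in WT uteri averaged 8.77 ± 0.933 FPKM at estrus (SD, n = 3) and 6.49 ± 4.01 FPKM at diestrus (SD, n = 4), a difference of 0.53 that did not pass the test (SE 0.309; limma adjusted p = 0.16). It was called at 0.84 without WT diestrus library 3, the one high in uterine NK cell markers (limma adjusted p = 0.00747). In the uteri labelled HIF2A cKO, Kit differed between estrus and diestrus by -0.31 (SE 0.309; limma adjusted p = 0.398) and Kitl by -0.02 (SE 0.142; limma adjusted p = 0.927). Among the low-level subunits, Fcer1a in WT was called higher at estrus in the fit with no minimum, by 0.49 (limma adjusted p = 0.0354), although its stage groups overlapped (exact two-sided permutation p = 0.171).

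Whether the stage change differed between genotypes was tested as an interaction, the estrus minus diestrus change in uteri labelled HIF2A cKO minus that in WT. None of the 7 members passed (0 called, where limma called 0.035% of all genes); of these, only Kitl had an unadjusted limma p under 0.05, where 17.6% of all genes had, at 0.47 (SE 0.201; unadjusted p = 0.0369, adjusted p = 0.258). For the proteases the interaction lay between -0.19 and -0.01 with SE between 0.227 and 0.351. Without both diestrus libraries numbered 3, Kit was called at -1.01 (limma adjusted p = 0.0477) and Hdc at 2.82 (limma adjusted p = 0.0375), where 8.5% of all genes were called.

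Ordered by mean level, Cma1, Mcpt4 and Cpa3 gave the same sequence of groups: WT estrus, WT diestrus, HIF2A cKO estrus, HIF2A cKO diestrus. The middle pair did not differ beyond their spread for any of the 3: HIF2A cKO estrus against WT diestrus was 12.8 and 15.0 FPKM for Cma1, 13.4 and 15.7 FPKM for Mcpt4, and 10.2 and 11.7 FPKM for Cpa3 (limma adjusted p = 0.288, 0.417 and 0.433), with overlapping libraries each time. Tpsb2 had HIF2A cKO estrus, at 16.7 FPKM, above WT diestrus, at 13.0 FPKM, again overlapping (limma adjusted p = 0.215). For Kitl, WT diestrus was highest, and the other groups, HIF2A cKO diestrus, HIF2A cKO estrus and WT estrus, lay at 12.1, 11.8 and 12.9 FPKM with overlapping libraries. FPKM is scaled to transcript length, so levels can be set side by side between genes: over all 14 libraries Mcpt4 was 0.823 to 1.23 times Cma1, Tpsb2 0.726 to 1.36 times Cma1 and Cpa3 0.532 to 0.864 times Cma1.

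Kit, Kitl, Hdc and the low-level Fcer1a did not keep such a ratio to Cpa3. Kit was 0.251 to 1.89 times Cpa3, Kitl 0.614 to 2.62 times Cpa3, and Hdc 0.101 to 16.7 times Cpa3. Ms4a2 was 0.0276 to 0.0459 times Cpa3 and Fcer1a 0.0184 to 0.0876 times Cpa3. The ratio of Kitl to Cpa3 in the diestrus groups was 1.29 to 2.62 in uteri labelled HIF2A cKO and 1.26 to 2.06 in WT, and at estrus 1.02 to 1.34 in uteri labelled HIF2A cKO and 0.614 to 0.733 in WT; the stages overlapped in uteri labelled HIF2A cKO and did not in WT.

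**Figure D3:**
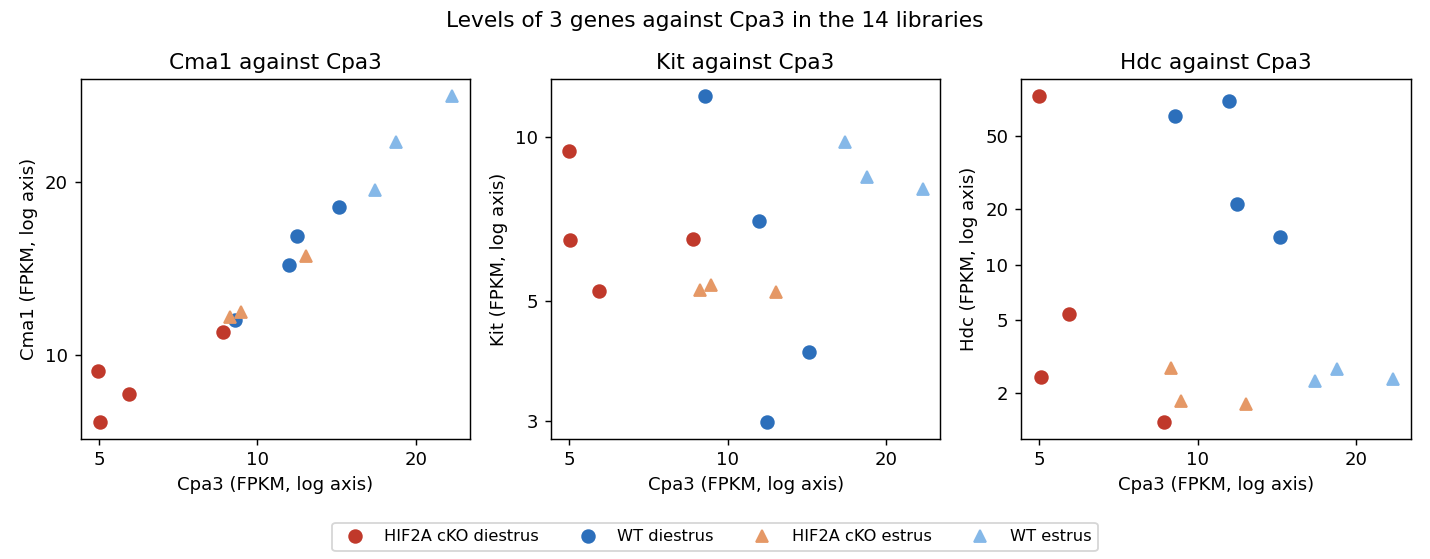
Levels of Cma1, Kit and Hdc (vertical, FPKM, log axes) against Cpa3 (horizontal, FPKM, log axes) in the 14 libraries, with diestrus as circles and estrus as triangles. Cma1 tracks Cpa3 across the groups, with Cpa3 between 0.532 and 0.864 times Cma1, whereas Kit and Hdc do not order the libraries as Cpa3 does.

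Within groups the proteases also varied together. Over the 14 libraries, Pearson's r of the deviations from the 4 group means with those of Cpa3 was 0.899 for Cma1, 0.87 for Mcpt4 and 0.834 for Tpsb2, and on the same measure 0.846 for Ms4a2 and 0.555 for Fcer1a. It was -0.496 for Kit, 0.297 for Kitl and -0.53 for Hdc. Of all genes tested outside the set, the highest r with Cpa3 were those of Il1rl1 (0.95), Cideb (0.909), Tmem209 (0.887), Srrm4 (0.873) and Srd5a2 (0.872). Among those most like Cma1 were Srrm4 (0.947), Gpm6b (0.89), Extl2 (0.879) and Slmap (0.87), and those most like Kitl were Tmem81 (0.963), Hdac9 (0.936), Kifap3 (0.908), Fam126b (0.905) and Bmpr2 (0.891). All values of a library share its depth and tissue composition, and these r describe the 14 libraries only. Il1rl1, which encodes the IL-33 receptor, was low, at 0.730 ± 0.232 FPKM in HIF2A cKO diestrus and 0.980 ± 0.163 FPKM in WT diestrus (SD, n = 4 each), and 0.867 ± 0.247 FPKM in HIF2A cKO estrus and 1.45 ± 0.310 FPKM in WT estrus (SD, n = 3 each); its genotype difference averaged over stages, -0.30, did not pass (limma adjusted p = 0.0605).

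Of 30 other mast cell genes beyond the members, 17 were tested, and at diestrus 2 were higher and 0 lower in uteri labelled HIF2A cKO, with a median of -0.21 against 0.02 over all genes, of which 13.8% were called higher and 10% lower. The 2 were Alox5ap, an activator of leukotriene synthesis that other leukocytes also carry, at 0.50 (SE 0.141; limma adjusted p = 0.0253), and Srgn, the core protein of granule proteoglycans, at 0.38 (SE 0.104; limma adjusted p = 0.0215). At estrus 0 of 17 were called between genotypes, where 0.105% of all genes were called either way. Averaged over both stages 0 were called too, where 6.22% of all genes were called higher and 4.32% lower. Between stages, 8 were higher and 2 lower at estrus in uteri labelled HIF2A cKO, and 7 higher and 2 lower in WT, where limma called 25.5% of all genes higher and 36.5% lower in uteri labelled HIF2A cKO, and 23% higher and 34.1% lower in WT. Among the genes higher in both genotypes, Rab27b reached the minimum for testing only through the estrus groups, where it was high. It was at or under 1.1 FPKM in HIF2A cKO diestrus and at or under 0.9 FPKM in WT diestrus. In every estrus library it was at or above 1.42 FPKM. Ltc4s, the leukotriene C4 synthase, rose by 2.45 in uteri labelled HIF2A cKO and by 2.32 in WT. Slc6a4, the serotonin transporter, rose by 1.73 in uteri labelled HIF2A cKO and by 1.59 in WT. Srgn fell by 1.89 in uteri labelled HIF2A cKO and by 1.25 in WT. The other 13 were below the minimum and not tested. Of these, 2 were lower without overlap in uteri labelled HIF2A cKO at diestrus and 4 at estrus, and 0 were higher; among 8551 genes below the minimum that were above 0 in at least 1 library, 3.1% were lower in this way at diestrus and 5.36% at estrus. The gene in both counts, named after its values were seen, was Cyp11a1, a steroid-forming enzyme, at 0.122 to 0.202 FPKM in HIF2A cKO diestrus, against 0.213 to 0.401 FPKM in WT diestrus, and at 0.247 to 0.327 FPKM in HIF2A cKO estrus, against 0.527 to 0.669 FPKM in WT estrus. The other at diestrus was Mrgprb1, a receptor of connective-tissue mast cells, and the others at estrus were Tpsg1, Ctsg and Tph1, all under 1 FPKM in both groups.

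Some list genes outside the rule for named genes are given after their values were seen, because they tell kinds of mast cell apart. Tpsab1, the other mast cell tryptase, averaged 8.68 ± 4.26 FPKM in HIF2A cKO diestrus and 12.4 ± 5.86 FPKM in WT diestrus (SD, n = 4 each), and 18.2 ± 2.06 FPKM in HIF2A cKO estrus and 29.1 ± 5.12 FPKM in WT estrus (SD, n = 3 each). Its genotype differences did not pass (limma adjusted p = 0.326 at diestrus and 0.79 at estrus), and it rose at estrus by 1.07 in uteri labelled HIF2A cKO and by 1.27 in WT (limma adjusted p = 0.0164 and 0.00733). Mcpt1 and Mcpt2, proteases of mucosal mast cells, were at or under 0.052 and 0.075 FPKM in every library, while Cma1, Mcpt4 and Tpsb2, known from connective tissue mast cells, were above 6 FPKM in every library. Basophils carry some of the same genes, and of their markers Prss34 was at 0 in every library of 3 groups and Mcpt8 averaged 0.0258 FPKM in HIF2A cKO diestrus and 0.113 FPKM in WT diestrus, and 0.064 FPKM in HIF2A cKO estrus and 0.0267 FPKM in WT estrus. The summed level of the 4 basophil markers was 3.79 to 7.19 FPKM in HIF2A cKO diestrus and 4.10 to 6.99 FPKM in WT diestrus, and 6.15 to 7.58 FPKM in HIF2A cKO estrus and 6.23 to 7.45 FPKM in WT estrus. Most of this sum came from Il3ra, since Prss34, Mcpt8 and Cd200r3 were at most 0.015, 0.264 and 0.328 FPKM in any library.

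Genes acting downstream of KIT and FceRI are shared with other blood cells. All 24 on the list were tested: at diestrus 3 were higher and 1 lower in uteri labelled HIF2A cKO, with a median of 0.03 against 0.02 over all genes, of which 13.8% were called higher and 10% lower. Stat5a, a transcription factor activated by cytokine receptors, was higher by 0.62 (limma adjusted p = 0.0438), and Cbl, a ubiquitin ligase that damps receptor signalling, by 0.41 (limma adjusted p = 0.0148). At estrus 0 were called between genotypes, where 0.105% of all genes were called either way. Relative to diestrus, 10 were higher and 1 lower at estrus in uteri labelled HIF2A cKO, and 9 higher and 0 lower in WT. Of all genes limma called 25.5% higher and 36.5% lower in uteri labelled HIF2A cKO, and 23% higher and 34.1% lower in WT. Lyn, the kinase that acts first below FceRI, rose by 1.11 in uteri labelled HIF2A cKO and by 0.92 in WT. The summed level of 5 macrophage markers was higher at estrus too, at 336 to 426 FPKM in HIF2A cKO estrus, against 158 to 196 FPKM in HIF2A cKO diestrus, and at 310 to 343 FPKM in WT estrus, against 176 to 241 FPKM in WT diestrus; their part in these changes was not tested.

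Of 8 histamine handling genes, 5 were tested, and at diestrus 2 were higher and 1 lower in uteri labelled HIF2A cKO, where 13.8% of all genes were called higher and 10% lower. Hrh1, the H1 histamine receptor, averaged 5.06 ± 3.32 FPKM in HIF2A cKO diestrus and 0.350 ± 0.109 FPKM in WT diestrus (SD, n = 4 each), higher by 1.93 (SE 0.380; limma adjusted p = 0.0065). Hrh1 reached the minimum for testing only through HIF2A cKO diestrus, the group where it was high. It ranged from 0.736 to 8.71 FPKM there and was at or under 0.601 FPKM in every library of the other groups. Aoc1, the secreted amine oxidase that degrades histamine, was higher by 1.52 at diestrus (SE 0.498; limma adjusted p = 0.0436), at 9.22 ± 5.63 FPKM in HIF2A cKO diestrus and 2.98 ± 3.35 FPKM in WT diestrus (SD, n = 4 each). At estrus, relative to diestrus, it rose by 5.69 in uteri labelled HIF2A cKO and by 6.03 in WT (limma adjusted p = 2.41e-06 and 2.63e-06). Hnmt, the intracellular histamine methyltransferase, was the gene called lower at diestrus.

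Genes that act with Kitl were read on 2 further lists, at diestrus against the 13.8% of all genes called higher and 10% lower. At estrus they were read against the 0.105% of all genes called either way. Of 20 mast cell growth factors and attractants with their receptors, 15 were tested and 1 was higher at diestrus, Il4ra, a subunit of the IL-4 receptor, by 0.99 (SE 0.230; limma adjusted p = 0.0113); at estrus 0 were called. Of 11 genes for KIT ligand shedding and for relatives of KIT, 10 were tested and 1 was lower at diestrus in uteri labelled HIF2A cKO, Pdgfra, a receptor of fibroblasts, at -0.49 (SE 0.145; limma adjusted p = 0.0295); at estrus 0 were called. Pdgfra is also 1 of 6 uterine stromal markers, of which 3 were called lower and 0 higher in uteri labelled HIF2A cKO at diestrus, beside the lower Kitl. Their summed level was 1390, 1350, 2280 and 1430 FPKM in the HIF2A cKO diestrus libraries. In the WT diestrus libraries it was 1510, 1770, 2480 and 1710 FPKM. The groups overlapped only through HIF2A cKO library 3, and the part of this level in the Kitl difference was not tested. Csf1r, a macrophage relative of Kit, rose at estrus by 1.67 in uteri labelled HIF2A cKO and by 1.09 in WT, and Mmp9, which sheds KIT ligand, by 1.22 in uteri labelled HIF2A cKO and by 0.90 in WT.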

How the data were processed

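Uterine RNA was sequenced in 14 libraries of 4 groups. The authors deposited FPKM values per gene, made with TopHat2 2.0.4 and Cufflinks 2.0.2 on mm10, per the submitters' processing notes; counts were not used here, and the depth in reads is unknown, so the precision of a single value cannot be given. Relative depth, estimated from steps in low FPKM values, ran from 1.0 to 1.89 between libraries, and 48 of 78 pairs of libraries fitted it within 0.03 on the log2 scale.

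Groups were taken from the labels. All 14 libraries entered 1 limma fit (limma 3.58.1, R 4.3.3) of log2(FPKM + 1) with 4 group means and a mean-variance trend, over the 14278 genes that reached 1 FPKM in 3 or more libraries. P-values were adjusted by Benjamini-Hochberg over these and called at 0.05. Left out were 11 genes with 0 in every library of one group although another group averaged 50 FPKM or more; 7 of them passed the minimum. The script was tested on simulated data. Exact permutation tests compared mean FPKM.

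No label says what the replicate numbers stand for, or that they pair libraries. The fit called paired below takes replicate number as a block at diestrus alone. At diestrus the deviations of same-numbered libraries of both genotypes correlated at 0.321, 0.115, 0.622 and 0.217. Same-numbered libraries correlated at -0.047 to 0.096 at estrus and at -0.135 to 0.018 between stages.

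Named were all members, Epas1, the 2 genes of each list with the largest called change per comparison, and the 5 genes most like Cpa3, Cma1 and Kitl, of which 1 is not reported here. Members and lists were chosen with earlier results of these data known. Alternatives covered pseudocount, minimum, scaling, variance model, library weights, fits of 2 groups, replicate block and each library left out; the average over stages, the fits without the diestrus libraries numbered 3, without the 2 highest in 45S signal, and with a block at diestrus alone were added after seeing the data.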

Additional observations from a re-analysis of the deposited data

Results flagged for a closer look

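Both results below concern uteri labelled HIF2A cKO at diestrus, where 1 of 4 libraries lay far from the others. Hdc was at 83.3 FPKM in library 3 and at 1.38, 2.45 and 5.39 FPKM in the other 3. Ms4a2 was at 0.328 FPKM in library 1 and at 0.144, 0.157 and 0.161 FPKM in the other 3; this library was also the highest of its group for Cma1, Mcpt4, Tpsb2, Cpa3 and Fcer1a. In each case the gap to the nearest library, over the range of the group, passed Dixon's critical value for 4 samples. Chance flags about 1 in 20 groups, and 2 of 18 groups of 4 were flagged.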

How the results depend on the processing

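The number of members called changed by more than 1.5 times in these settings. For labelled HIF2A cKO against WT it was 1 at diestrus with the libraries of the 2 groups alone (4 as reported), and at estrus it was 4 with the 2 groups alone, 4 with library weights and 1 without the diestrus libraries numbered 3 (0 as reported). For estrus against diestrus in uteri labelled HIF2A cKO it was 1 without the 2 libraries highest in 45S signal, where 20.6% of all genes were called higher. Leaving out each library it was 1 to 4 (4 as reported), where 7851 to 9052 of all genes were called either way. For the interaction it was 3 with library weights, 2 without the diestrus libraries numbered 3, and 0 to 1 leaving out each library (0 as reported); of all genes the interaction was called for 5225 of 14278 with library weights and 1204 of 14160 without the diestrus libraries numbered 3. The cause was not tested. Over all genes, calls between genotypes at diestrus were 3410 as reported, 430 with the 2 groups alone, 7885 with library weights and 2119 in the paired fit of the diestrus libraries with a replicate block; at estrus they were 15 as reported, 441 with the 2 groups alone and 0 to 1331 in all alternatives, for the interaction 5 and 0 to 5225, and for the average over stages 1505 and 146 to 7266. Library weights gave the highest count in each of these, and leaving out WT estrus library 2 the lowest at estrus (also reached with a minimum of 5 FPKM), for the interaction (also without HIF2A cKO estrus library 4) and for the average.

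Some values near 0 reversed in sign. The interaction of Cpa3 (-0.02) was 0.00 with library weights, 0.02 with a pseudocount of 0.1, 0.01 without the diestrus libraries numbered 3 and 0.01 without the libraries highest in 45S signal; that of Mcpt4 (-0.01) was 0.04, 0.01 and 0.08 in the first 3 of these. The estrus change of Kitl in uteri labelled HIF2A cKO (-0.02) was 0.11 with library weights, 0.05 with median-of-ratios scaling, 0.04 with quantile normalization and 0.04 without the libraries highest in 45S signal. Leaving out each library, the interaction ranged from -0.16 to 0.13 for Cpa3, from -0.11 to 0.17 for Mcpt4 and from -0.35 to 0.01 for Tpsb2 (-0.19 as reported), the estrus change of Kitl in uteri labelled HIF2A cKO from -0.08 to 0.08, and the diestrus difference of Kit between labelled HIF2A cKO and WT from -0.05 to 0.52 (0.20 as reported).

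The replicate block of 7 stage and number pairs changed 2 calls between genotypes: Hdc at diestrus became called (-2.16, adjusted p = 0.0324; 0.0877 and not called in the paired fit of the diestrus libraries alone) and so did Tpsb2 averaged over stages (-0.49, adjusted p = 0.0482; limma); it changed no other call of a member there. With number alone as a block, Cma1 lost its stage call in uteri labelled HIF2A cKO (0.40, limma adjusted p = 0.0653) and Kit gained one in WT (0.76, limma adjusted p = 0.00637). The labels do not say that numbers pair the stages. The Kitl call averaged over stages was lost when each of 10 libraries was left out, without the variance trend, with median-of-ratios scaling, with no minimum and without the diestrus libraries numbered 3, with adjusted p from 0.0504 to 0.118 (limma). The depth in reads is unknown, so what it limits for Fcer1a and Ms4a2, under 1 FPKM in most libraries, cannot be given.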
